A study of Arabidopsis thaliana with 10 samples.

Results

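The response of wild-type Arabidopsis thaliana roots to iron deficiency was measured on 4 Affymetrix arrays, 2 from plants moved to medium without iron (-Fe) and 2 from plants moved to medium with iron (+Fe). These 4 arrays, all labelled WT (Col), are the wild-type part of a set of 10. The other 6 arrays are from roots of bts-3, an allele named for the ligase gene BRUTUS, with 3 on each medium, and were kept out of the fit. Plants grew on B5 medium for 2 weeks and then spent 3 days (72 h) with or without iron before roots and shoots were separated and frozen. The labels call the arrays of a group biological replicates, and 100 ng of RNA was labelled for each. Of 28583 probe sets, the 16722 that the platform annotation pairs with exactly 1 gene (16550 genes) were tested. Values are log2 levels, so that a difference of 1 is a doubling.

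Iron is abundant in soil but poorly soluble, and Arabidopsis acquires it by acidifying the rhizosphere, reducing ferric iron at the root surface and importing ferrous iron. Roots also secrete coumarins, phenolic compounds such as fraxetin that mobilise and reduce iron. The response is set by bHLH transcription factors, by short IRON MAN (IMA) peptides that promote it, and by hemerythrin-domain ubiquitin ligases of the BRUTUS (BTS) type that restrain it.

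Array medians lay between 5.30 and 5.45 for WT. The +Fe arrays correlated at r = 0.991 over probe sets and the -Fe arrays at r = 0.982, while pairs across media lay between 0.971 and 0.983. WT -Fe replicate 1 stood apart from its partner: 622 probe sets differed by over 1 log2 unit between the -Fe arrays, of which 443 were higher in replicate 1, against 138 between the +Fe arrays. Root hair expansins EXPA7 (8.56 to 8.83) and EXPA18 (9.13 to 9.57) lay above the array medians on all 4 WT arrays. The shoot markers RCA (6.37 to 8.21) and LHCB4.1 (6.45 to 7.86) also lay above them.

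Iron deficiency was accompanied by a response of mostly higher levels. At a limma adjusted p under 0.05, 164 probe sets (0.981% of those tested) were called, 123 of them higher on -Fe (0.736%) and 41 lower (0.245%). By size the higher genes were led by the coumarin enzyme S8H, the locus AT1G52120, the cytochrome P450 CYP71B5 and the vacuolar metal transporter MTP8. They also held a bHLH factor, IMA peptides, BTS-like ligases and many loci known by identifier alone. The lower genes were led by such loci and held cold-response genes and nuclear genes of photosynthesis. In whole roots, fewer cells of a type and less RNA per cell cannot be told apart.

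Changes upward were larger than changes downward. Log2 fold changes of the called higher genes ran from 1.18 to 6.19 (median 1.97), with 59 at 2 or more and 14 at 4 or more. Those of the called lower genes ran from -1.20 to -2.95 (median -1.52), with 5 at -2 or below. Over all probe sets tested the median was 0.01, the quartiles were -0.20 and 0.24, and 51.9% were positive. In all 164 called probe sets the -Fe arrays lay wholly above or below the +Fe arrays, as they did in 44.4% of all probe sets. Only 2 of the calls, both higher, fell among probe sets with a mean level under the lower quartile of 2.77, and 54 fell above the upper quartile of 6.95. That mean is over all 4 WT arrays, so the -Fe values of a higher gene raise it. On +Fe alone the 123 higher genes had a median level of 4.94, but some lay under 2.77. Examples are AT3G61930 (+Fe mean 2.03), AT1G52130 (2.18) and AT1G44010 (2.48), whose folds rest on low control levels.

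The number of calls rested heavily on single arrays. With 1 array left out in turn, limma called 29 without +Fe replicate 1, 38 without +Fe replicate 2, 227 without -Fe replicate 1 and 692 without -Fe replicate 2, and all 164 kept their sign each time. The kept signs were fixed in advance, because the arrays of the 2 media did not overlap in any of the 164, so they show no stability. Arrays centred on their medians gave 132 higher and 19 lower, a more one-sided split than 123 to 41.

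**Figure D1:**
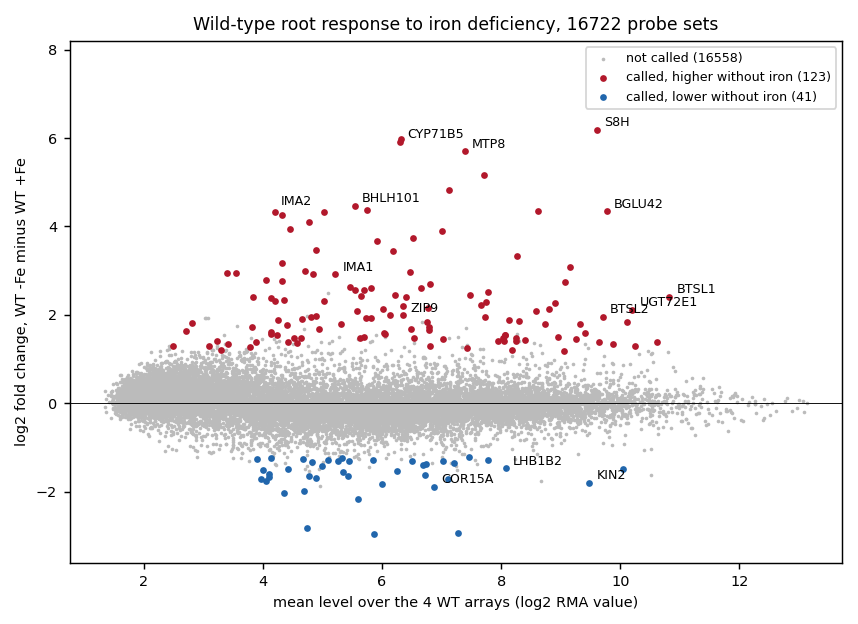
Log2 fold change of WT roots (-Fe minus +Fe, y axis) against the mean log2 level over the 4 WT arrays (x axis), with 1 point for each of 16722 probe sets. The 123 called higher (red) reach 6.19 and the 41 called lower (blue) reach -2.95, while the uncalled probe sets (grey) crowd around 0.

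Of genes that make, release or glycosylate phenolic compounds, 3 rose. AT3G12900, known as S8H (scopoletin 8-hydroxylase), which makes fraxetin, was at 6.61 and 6.43 with iron, and 12.72 and 12.70 without. This rise of 6.19 log2 units (SE 0.20, limma adjusted p = 7.32e-05), or 72.9-fold, was the highest of all called genes. BGLU42, a beta-glucosidase that releases coumarins from their glucosides, was at 7.44 and 7.77 with iron and 12.08 and 11.81 without. BGLU42 thus rose by 4.34 (SE 0.22, adjusted p = 0.000228), or 20.3-fold. UGT72E1, a glucosyltransferase acting on phenylpropanoid aldehydes, was at 9.19 and 9.09 with iron, and 11.27 and 11.25 without, a rise of 2.12 (SE 0.19, adjusted p = 0.00344). In none of these genes did the arrays of the 2 media overlap.

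Earlier steps of coumarin and phenylpropanoid synthesis had smaller differences that did not pass. AT1G28680, known as COSY (coumarin synthase), is read by 2 probe sets. The brighter was at 10.01 and 9.90 on +Fe and 11.13 and 11.01 on -Fe, a difference of 1.11 (SE 0.20, adjusted p = 0.0563). The dimmer gave 1.24 (SE 0.25, adjusted p = 0.0909). HCT, which acts earlier in phenylpropanoid synthesis, was at 9.79 and 10.14 with iron and 11.05 and 11.15 without (1.14, SE 0.21, adjusted p = 0.0719). Both -Fe arrays exceeded both +Fe arrays for COSY and HCT, and arrays of the 2 media did not overlap in 44.4% of all probe sets. DFR, of the anthocyanin branch, had a difference of -0.41 with overlapping arrays. CYP71B5, a cytochrome P450 outside the listed pathway, was at 2.78 and 3.89 on +Fe and 9.35 and 9.15 on -Fe. It rose by 5.91 (SE 0.35, adjusted p = 0.000543).

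Among metal transporters, AT3G58060, known as MTP8, which moves manganese and iron into the vacuole, was at 4.59 and 4.50 with iron and 10.01 and 10.47 without. Its rise of 5.70 (SE 0.23, adjusted p = 0.000125) equals 52.0-fold. ZIP9, a zinc transporter of the ZIP family, was at 5.12 and 5.61 with iron, and 7.55 and 7.16 without, a rise of 1.99 (SE 0.25, adjusted p = 0.0169). The other 5 measured members of the zinc and copper list did not pass: the zinc-deficiency factor bZIP19 had a difference of 0.76, CITF1 (a copper-responsive bHLH factor) 0.55, CCS (the copper chaperone of superoxide dismutase) 0.52, ZIP6 -0.17 and bZIP23 -0.28. That list had a median of 0.54 over 6 probe sets.

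Counted as a list, iron uptake and coumarin secretion had 5 probe sets of 4 genes measured (S8H, MTP8, BGLU42 and COSY, from 24 listed loci). Of these, 3 were called higher and none lower, with a median of 4.34. All lists here were written with earlier results of these data known, so such counts are description only. The remaining listed loci, which include the ferric reductase and the main root iron importer, were not analysed here.

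Of 15 measured regulators of the iron response, 5 were called higher and none lower, with a median of 0.56 and 12 positive. BHLH101, a bHLH factor of the group that partners the main iron regulator FIT, was at 3.15 and 3.47 with iron, and 7.78 and 7.77 without. It rose by 4.46 (SE 0.21, adjusted p = 0.000201), which is 22.1-fold. AT1G47395, known as IMA2, was at 2.88 and 2.86 with iron and at 6.32 and 8.06 without (4.32, SE 0.49, adjusted p = 0.0101). AT1G47400, known as IMA1, was at 3.82 and 3.69 with iron and at 5.94 and 7.41 without (2.92, SE 0.43, adjusted p = 0.0308). Both IMA genes differed by over 1 log2 unit between the -Fe arrays, with replicate 2 the higher, and IMA2 had the largest standard error of all called genes.

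The BTS-like ligases, which target iron-response regulators for degradation in roots, also rose. AT1G74770, known as BTSL1, was at 9.55 and 9.69 with iron, and 12.07 and 11.98 without, a rise of 2.40 (SE 0.19, adjusted p = 0.00216). AT1G18910, known as BTSL2, was at 8.73 on both +Fe arrays and at 10.83 and 10.53 on -Fe, a rise of 1.95 (SE 0.21, adjusted p = 0.00753). Genes that promote the response (BHLH101 and both IMA genes) and genes that restrain it (BTSL1 and BTSL2) were all higher.

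Neither PYE nor the upstream bHLH factors passed the test. PYE (POPEYE), a repressor of iron distribution genes, was at 6.51 and 6.29 with iron, and 7.19 and 7.46 without, a difference of 0.92 (SE 0.21, adjusted p = 0.126) with no overlap. ILR3, an upstream factor that also partners PYE, had a difference of 0.56 (SE 0.20, adjusted p = 0.312). The other upstream factors lay at 0.44 (bHLH115), 0.15 (bHLH121), -0.56 (bHLH104) and -0.70 (bHLH34), none called. The subgroup of bHLH18, bHLH19, bHLH20 and bHLH25, reported to promote degradation of FIT, lay between -0.85 and 0.73, none called. At its upper end bHLH19 had a wide error (SE 0.69). It was at 3.33 and 4.32 with iron, and 5.72 and 3.40 without. At its lower end bHLH20 (SE 0.29, limma adjusted p = 0.295) did not overlap between media, as was so for 44.4% of all probe sets.

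**Figure D2:**
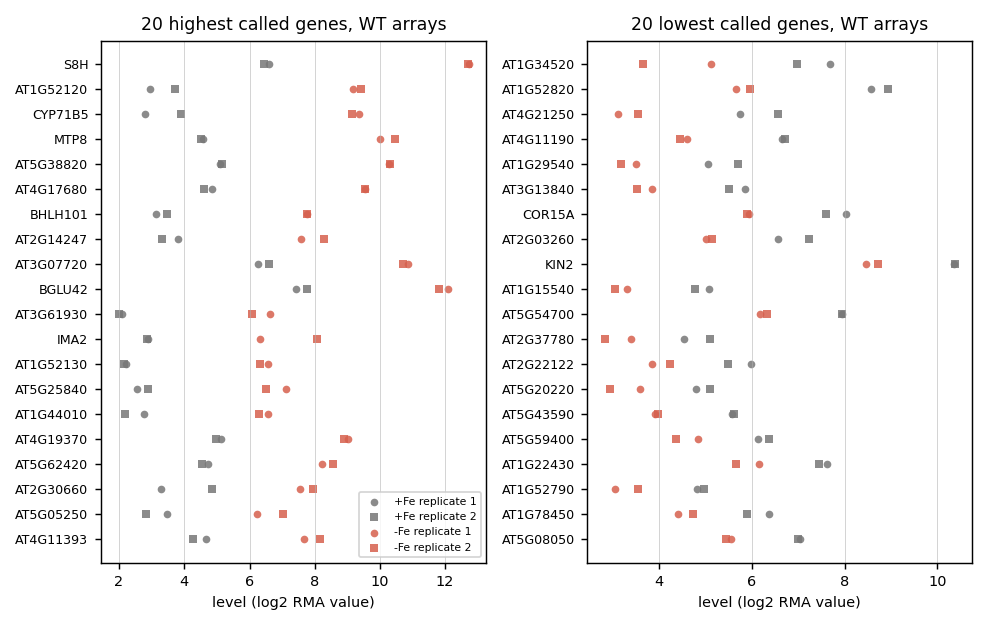
Log2 level in each WT array (x axes) of the 20 called genes with the highest log2 fold change (left) and the 20 with the lowest (right). Grey symbols are +Fe and red symbols are -Fe, with circles for replicate 1 and squares for replicate 2. The colours do not overlap in any gene, and IMA2, at 6.32 and 8.06, has the widest gap between -Fe arrays among the 20 on the left.

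A further list held loci that respond to low iron in earlier work and whose functions are mostly little known. Of its 16 measured members 14 were called higher and none lower, with a median of 2.79. Over all probe sets 0.736% were called higher. The list was written with earlier results of these data known, so its count is no independent support. AT1G52120 was at 2.95 and 3.71 with iron, and 9.16 and 9.43 without, a rise of 5.97 (SE 0.28, adjusted p = 0.000201). AT5G38820 was at 5.09 and 5.17 with iron and at 10.28 and 10.30 without, a rise of 5.17. AT2G14247 was at 3.79 and 3.31 with iron and at 7.58 and 8.28 without, a rise of 4.38. These rises correspond to 62.5-fold, 35.9-fold and 20.8-fold.

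The next members of that list in size were AT3G07720 (4.36), AT3G61930 (4.32), AT5G05250 (3.47) and AT4G09110 (3.34). Smaller rises came from AT1G73120 (2.98), AT3G06890 (2.60), AT1G12030 (2.39), AT2G20030 (1.88), AT3G56360 (1.84) and AT1G77280 (1.55), besides UGT72E1. Uncalled were AT1G13609, at 2.02 and 2.21 on +Fe and 3.34 and 4.75 on -Fe (1.93, adjusted p = 0.112), and AT2G41380 (-0.05), whose arrays overlapped. The adjusted p of the 14 called members ran up to 0.0169.

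Several loci outside the lists ranked among the 20 with the highest rise. AT4G17680 was at 4.85 and 4.60 with iron, and 9.55 and 9.53 without, a rise of 4.82 (SE 0.20, adjusted p = 0.000138). AT1G52130, the chromosomal neighbour of AT1G52120, was at 2.21 and 2.16 with iron and at 6.58 and 6.33 without, a rise of 4.27. The others were AT5G25840 (17.2-fold), AT1G44010 (15.3-fold), AT4G19370 (14.9-fold), AT5G62420 (13.5-fold), AT2G30660 (12.8-fold) and AT4G11393 (11.0-fold). AT2G30660 differed by 1.59 between its +Fe arrays (3.28 and 4.86), so its fold depends on which control array is used.

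Of the 164 called genes, 131 are given by locus identifier alone. Those with a symbol that stand outside the lists are named here after their values were seen. FOLB1, a dihydroneopterin aldolase of folate synthesis, was at 4.79 and 5.17 with iron, and 8.17 and 7.71 without (2.96, SE 0.25, adjusted p = 0.00236). APS3, an ATP sulfurylase that activates sulfate, was at 6.16 and 6.34 with iron and at 8.75 and 8.65 without (2.45, SE 0.20, adjusted p = 0.00213). GH3.3, which conjugates the hormone auxin to amino acids, was at 5.61 and 5.76 with iron and at 7.66 and 8.03 without (2.16, SE 0.22, adjusted p = 0.00583). All of these had -Fe arrays well clear of the +Fe arrays.

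The pectin methylesterase PME41 (ATPMEPCRB), which modifies wall pectin, was at 5.24 and 5.65 with iron, and 8.25 and 8.06 without (2.71, SE 0.22, adjusted p = 0.00236). ARD2, an acidireductone dioxygenase of methionine salvage and the sole measured member of the methionine list, was at 5.61 and 5.67 with iron, and 7.61 and 7.05 without (1.69, SE 0.24, adjusted p = 0.0279). Further rises were seen for the actin-binding protein NET3A (1.88), the receptor kinase EMS1 (1.47), the fructan exohydrolase cwINV6 (1.41) and the glutaredoxin ROXY2 (1.33).

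Among the 41 lower genes, loci without a symbol led. AT1G34520 was at 7.69 and 6.98 with iron, and 5.12 and 3.65 without, and fell by 2.95 (SE 0.47, adjusted p = 0.0386), with -Fe arrays 1.47 apart. AT1G52820 was at 8.56 and 8.94 with iron and at 5.65 and 5.97 without, and fell by 2.94 (SE 0.23, adjusted p = 0.00209). AT4G21250 was at 5.74 and 6.56 with iron and at 3.11 and 3.55 without, and fell by 2.82 (SE 0.31, adjusted p = 0.00903). AT4G11190 and AT1G29540 fell by 2.15 and 2.04, and these 5 were the only called genes at -2 or below. The remaining 15 of the 20 lowest fell by 1.52 to 1.99.

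All 6 measured members of the cold and abscisic acid list were negative (median -0.92) and 2 were called. KIN2, a small cold-induced protein, was at 10.37 and 10.38 with iron, and 8.45 and 8.71 without, and fell by 1.79 (SE 0.20, adjusted p = 0.010). COR15A, a chloroplast protein that protects membranes during freezing, was at 8.02 and 7.61 with iron and at 5.95 and 5.89 without, and fell by 1.89 (SE 0.22, adjusted p = 0.0108). The dehydrins LTI30 and COR47 had differences of -0.78 and -0.29, with COR47 overlapping between media. KIN1 (-1.06) was at 2.94 and 4.20 on the -Fe arrays, and COR15B (-0.15) lay under 2 on all 4 arrays.

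Nuclear genes of photosynthesis were lower as well. LHB1B2, a light-harvesting protein of photosystem II, was at 8.86 and 8.76 with iron, and 7.51 and 7.17 without, and fell by 1.47 (SE 0.21, adjusted p = 0.0285). PSAN, a subunit of photosystem I, was at 6.46 and 6.50 with iron and at 5.37 and 5.04 without, and fell by 1.27 (SE 0.21, adjusted p = 0.0447). PIFI, a chloroplast protein acting in chlororespiration, was at 4.79 and 4.71 with iron and at 3.46 and 3.58 without, and fell by 1.23 (SE 0.19, adjusted p = 0.0373). The family held 8 nuclear genes by symbol, of which 7 were negative and 2 called, with a median of -0.99. Uncalled members with separated arrays included PSAE-1 (-1.15), PSBW (-1.03), PSBY (-0.93) and LHCB4.2 (-0.87), and LHCB4.3 was positive at 0.48. Arrays of the 2 media were separated in 44.4% of all probe sets.

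Shoot markers moved the same way as these genes, although LHCB4.1 is itself a member of the photosynthesis family. RCA (rubisco activase) was at 8.21 and 7.69 with iron, and 6.68 and 6.37 without (-1.42, SE 0.25, adjusted p = 0.0557). LHCB4.1 was at 7.86 and 7.40 with iron and at 6.93 and 6.45 without (-0.94, adjusted p = 0.203). Both of the 2 shoot markers measured, of 6 listed, were lower, and their mean by array was 8.03 and 7.55 on +Fe and 6.81 and 6.41 on -Fe. Whether carried-over shoot tissue had a part in the photosynthesis values was not tested.

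The 63 chloroplast-encoded genes had a smaller shared difference. None was called, 59 were negative, and their median was -0.30 (-0.81 for psbM to 0.20 for rpl33). Their mean level by array was 10.49 and 10.52 on +Fe and 10.21 and 10.19 on -Fe, without overlap. Their median stayed negative under each scaling tried, at -0.34 with arrays quantile normalized again and -0.19 with arrays centred on their medians, a scaling that moved the median of all genes from 0.01 to 0.13. Reference genes UBC21, TIP41, GAPC2 and SAND lay between -0.02 and 0.12, none called, with a median of 0.09 that was positive under both scalings.

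Other lower genes with a symbol, again named after their values were seen, came from different functions. WRKY42, a transcription factor acting in phosphate homeostasis, was at 7.71 and 8.05 with iron, and 6.62 and 6.44 without, and fell by 1.34 (SE 0.21, adjusted p = 0.0401). CLE20, which encodes a short signalling peptide of the CLE family, was at 5.82 and 5.59 with iron and at 4.34 and 4.21 without, and fell by 1.43 (SE 0.20, adjusted p = 0.0279). The beta-glucosidase BGLU47 fell by 1.32, whereas its relative BGLU42 rose.

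Large enzyme families had medians close to 0 and few called members. Among 26 cytochromes P450, 1 was called (CYP71B5) and the median was -0.03, a sign that turned to positive with centred arrays, whose shift is given above. Of 56 probe sets for UDP-glycosyltransferases, which attach sugars to small molecules, 2 were called higher (UGT72E1 and UGT73D1, at 1.65) and the median was 0.02. The serine carboxypeptidase-like family, which includes acyltransferases of phenolic esters, had 3 of 33 called higher (SCPL20 at 2.19, SCPL22 at 1.58 and SCPL15 at 1.48) and a median of 0.08, which turned to -0.02 with arrays quantile normalized again. PUB54 alone was called among 10 plant U-box ligases (2.40), with a median of 0.28. In the same family PUB19 was at 1.78 and 2.37 with iron, and 5.15 and 2.86 without, so its difference of 1.93 (adjusted p = 0.286) came mostly from -Fe replicate 1.

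Auxin-response genes had 1 call, GH3.3, in 13, and a median of 0.15. WRKY factors had 1 call, WRKY42, in 7. WRKY22 was at 5.13 and 5.47 with iron, and 7.41 and 6.17 without, and its difference of 1.49 did not pass (adjusted p = 0.18).

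Several families had no call in either direction. The 24 expansins, which loosen cell walls, ran from -0.87 (EXPB2) to 1.23 (EXP26) with a median of 0.17. Wall polymer genes (33, -0.61 for TBL28 to 1.21 for TBL42), xyloglucan endotransglucosylases (9, -0.67 for XTH26 to 0.79 for XTH18) and glutathione transferases (14, -0.88 for GSTU18 to 0.66 for GSTL3) were likewise uncalled. So were 73 defensin-like and thionin genes, of which 54 were positive, with a median of 0.12 that turned negative (-0.01) when the arrays were quantile normalized again. The 5 genes with a jacalin lectin entry among their annotated synonyms had a median of -0.73, with none called. Loci without such an entry are left out by this pick, so it does not speak for the whole lectin family.

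**Figure D3:**
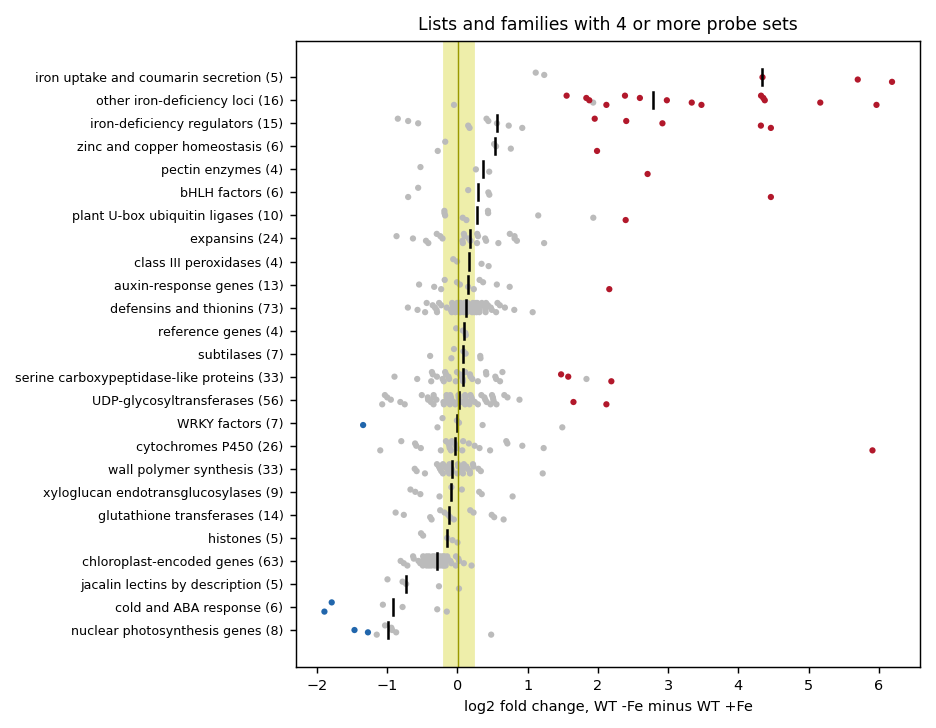
Log2 fold change (x axis, WT -Fe minus +Fe) of every probe set in each list or family with at least 4 measured probe sets, whose number is in brackets. Red and blue points are called higher and lower, grey points are not called, black bars are medians, and the yellow band spans the quartiles of all probe sets (-0.20 to 0.24). Medians of 4.34 and 2.79 set the first 2 lists apart, and nuclear photosynthesis and cold genes lie lowest. The lists were written with earlier results of these data known.

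Of 18 lists with 238 loci, 13 had a measured member and 62 loci were measured in all. Little can be said of iron storage, where VTL3 and VTL4, of a family of vacuolar iron transporters, had differences of -0.54 and 0.03 with none called. ISU1, the scaffold of iron-sulfur cluster assembly, was measured alone in its list (0.30), as was SDI2, a gene induced by sulfur deficiency, in the sulfate list (-0.45). Root hair genes EXPA7 (0.18) and EXPA18 (-0.29) were uncalled. Lists for iron movement inside the plant, phosphate starvation, nitrogen uptake, endodermis and vascular tissue were not analysed here.

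WT -Fe replicate 1 carried a further set of high values. The 20 probe sets that differed most between the -Fe arrays were all higher in replicate 1, by 2.65 to 4.50, and none was called. Their mean level was 4.63 and 5.40 on +Fe, 7.40 on -Fe replicate 1 and 4.32 on -Fe replicate 2. In bts-3 the mean was at most 5.12 on +Fe and was 5.98, 3.79 and 3.68 on -Fe. Picked from them after their values were seen were the transcription factor ORA47, which acts in jasmonate signalling (4.13 and 5.34 on +Fe, 7.83 and 3.90 on -Fe), and CML38, a calmodulin-like protein (6.01 and 6.73 on +Fe, 8.26 and 5.61 on -Fe). Of the 164 called genes, by contrast, 4 differed by over 1 between the -Fe arrays (IMA1, IMA2, AT1G34520 and AT4G32375) and 3 between the +Fe arrays (AT2G30660, CYP71B5 and AT3G61400).

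The genes called in WT were then read in the 6 bts-3 arrays, none of which entered the WT fit. Of the 123 higher genes 95 (77.2%) were also higher on -Fe in bts-3, against 54.5% of all probe sets, and of the 41 lower genes 27 (65.9%) were lower, against 45.5%. The median difference between media in bts-3 was 0.34 for the higher genes and -0.21 for the lower, and 20 and 3 of them passed 1 and -1. Over all 16722 probe sets, 190 differed by over 1 in either direction in bts-3. The median level of the 123 genes in WT was 4.94 with iron and 7.44 without, and in bts-3 it was 6.18 with iron and 6.55 without. The genes were selected for a difference between the WT groups, so a bts-3 median between them is partly set in advance. Not every gene lay between them: SCPL15 had a mean of 6.18 on bts-3 +Fe against 7.29 on WT +Fe. WT values are raised by having been selected in WT, so the sizes are given side by side and not compared. The count of 95 depended on bts-3 -Fe replicate 1, without which it was 58.

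The bts-3 -Fe arrays were unlike one another. Relative to the bts-3 +Fe mean, the 123 genes had medians of 1.17, 0.48 and -0.41 in bts-3 -Fe replicates 1, 2 and 3. In WT the corresponding medians were 2.06 and 1.88. These are not differences between same-numbered arrays, and the bts-3 +Fe arrays also differed. In bts-3 replicates 1, 2 and 3, AT5G38820 was at 9.08, 9.66 and 7.08 on +Fe and 9.79, 9.79 and 6.99 on -Fe. PUB54, by contrast, was at 3.41, 3.33 and 5.23 on +Fe and 6.87, 2.97 and 3.04 on -Fe. AT2G14247 and IMA2 had among the larger differences in bts-3, at 2.83 and 2.12, and IMA1 was at 1.70. S8H had a difference of 0.10, with mean levels in bts-3 of 10.80 with iron and 10.89 without, against 6.52 on WT +Fe. BTSL1 (0.21) had a mean of 11.19 on bts-3 +Fe against 9.62 on WT +Fe, and BHLH101 (0.24) one of 7.02 against 3.31. AT1G73120 (-1.95) was at 7.27 on bts-3 +Fe against 3.21 on WT +Fe. S8H, BTSL1, BHLH101 and AT1G73120 were thus already higher in bts-3 with iron than in WT with iron, a difference not tested here. AT2G14247, by contrast, had a mean of 3.64 on bts-3 +Fe against 3.55 on WT +Fe.

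Whether the response differed between the genotypes was tested by the interaction term of a limma fit to all 10 arrays. That test called 1 of 16722 probe sets, the lower gene AT3G13840, and 758 had an unadjusted p under 0.05. AT3G13840, a locus without a symbol, was at 5.85 and 5.51 on WT +Fe and at 3.85 and 3.52 on WT -Fe. It fell by 1.99 (SE 0.23, adjusted p = 0.0101) in the fit of the WT arrays alone. In bts-3 its mean was 3.36 on +Fe and 3.79 on -Fe, so that with iron it already lay near the WT -Fe mean of 3.69. No probe set was called once any 1 of the WT arrays was left out. Among the bts-3 arrays, leaving out +Fe replicate 1 or -Fe replicate 2 or 3 also gave no call, -Fe replicate 1 gave 3 calls and +Fe replicate 3 gave 7. For the other genes named here no difference between the genotypes was called.

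**Figure D4:**
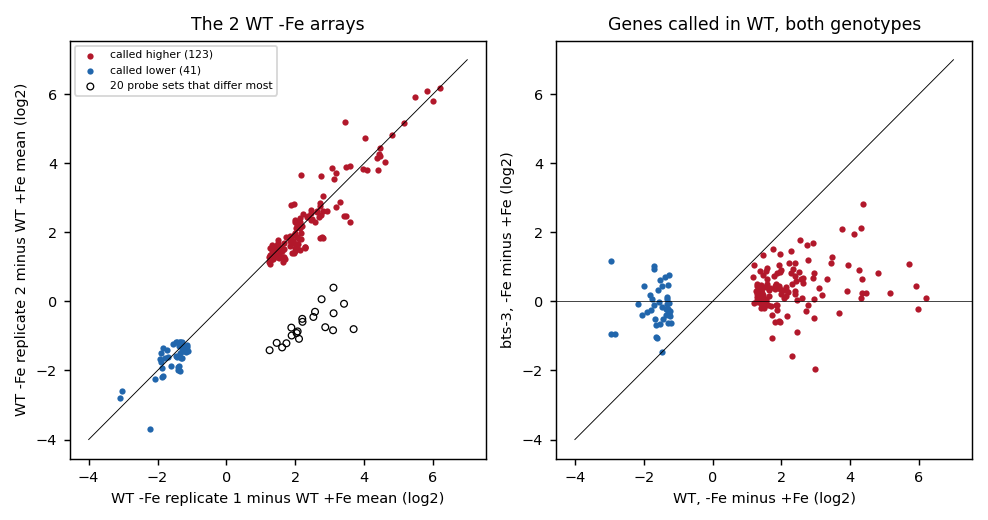
Left, log2 level of the called genes in WT -Fe replicate 2 (y axis) against WT -Fe replicate 1 (x axis), each minus the WT +Fe mean, with the 20 probe sets that differ most between the -Fe arrays as open circles. Right, the difference between media in bts-3 (y axis) against that in WT (x axis) for the 123 higher (red) and 41 lower (blue) genes. Called genes follow the diagonal in the left panel, and in the right panel bts-3 medians are 0.34 and -0.21.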

How the data were processed

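RNA from roots was hybridised to Affymetrix arrays, and the authors deposited log2 values. The submitters' processing notes name RMA and the Affymetrix Expression Console. RMA corrects background, quantile normalizes the arrays and summarises probes, so shifts shared by most genes are removed and low levels are compressed. Intensities and a detection call were not used here, and the number of arrays limits the precision.

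Probe sets were named through the platform annotation, which gave 16722 of 28583 exactly 1 gene, 759 several and 11102 none. Of the 16722, 16574 matched the RefSeq table of assembly TAIR10.1, used for symbols and gene order. S8H, MTP8, COSY, IMA1, IMA2, BTSL1, BTSL2 and the roles of genes are from general knowledge of Arabidopsis. Sequences and coordinates were not used here.

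The 2 WT -Fe arrays were compared with the 2 WT +Fe arrays in limma 3.58.1 (R 4.3.3; lmFit, eBayes, two-sided), with Benjamini-Hochberg adjustment over 16722 probe sets and a call at 0.05. The fit has 2 residual degrees of freedom, to which eBayes adds 5.30. P-values rest on the spread between biological replicates, with more weight on the spread pooled over probe sets than on that of the gene itself. An exact permutation of 2 against 2 arrays cannot go below 0.333. The labels do not say whether replicate numbers pair the arrays, and the main fit used no replicate block. Same-numbered deviations correlated at -0.107, which does not settle the question. The fit was tested on simulated data.

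Named genes are the 20 highest and 20 lowest called, list members, and in families the called members or the extremes. The genes compared, the lists and the tests were chosen with earlier results of these data known. Families were picked by gene symbol, some by annotated synonym or by chromosome, with patterns corrected after values were seen. Lists are described by counts and medians and have no test. Alternatives were another normalization, filters, eBayes options, blocks, thresholds and leaving out arrays. Figures were drawn with matplotlib 3.10.9.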

Additional observations from a re-analysis of the deposited data

Results flagged for a closer look

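The difference between the iron responses of the genotypes was past the threshold for AT3G13840 alone. The interaction (bts-3 response minus WT response) was 2.43 on the log2 scale: the gene fell by 1.99 in WT and had a difference of 0.43 in bts-3, where it was low on both media (limma adjusted p = 0.0474 for the interaction). It was lower on both WT -Fe arrays than on both WT +Fe arrays. The call was lost without any 1 of the WT arrays, and when +Fe replicate 1 or -Fe replicate 2 or 3 of bts-3 was left out.

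A signal was also present in probe sets that no comparison above uses. When all 28583 probe sets were fitted to the WT arrays, 272 were called, and 124 of these are not paired with exactly 1 gene (90 higher and 34 lower on -Fe). Their log2 fold changes ran from -3.08 to 7.58, and the probe set at 7.58 is one of those that the annotation leaves without a gene. The share called was 1.05% of 11861 such probe sets and 0.885% of the single-gene probe sets in the same fit.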

How the results depend on the processing

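All 164 called genes kept their sign under every alternative fit whose calls were matched to them. Only a further quantile normalization and the centring of arrays could have changed a sign. The other fits used the same values, and in these genes the WT arrays of the 2 media did not overlap. Counts are given as all calls, then higher and lower. With the replicate block limma called 79 (69 and 10), 78 of them among the 164. With numbers crossed, a pairing chosen after seeing the data, it called 462 (288 and 174). With all 10 arrays fitted 5 were called (2 and 3), and 159 of the 164 had an unadjusted p under 0.05. A trend in eBayes gave 262 (85 lower), all probe sets 272 (206 and 66), an adjusted p under 0.01 60 (57 and 3) and under 0.1 297 (195 and 102). The count of lower genes was 25 after a further quantile normalization, 19 with centred arrays and 68 without probe sets below the median level. Leaving out 1 WT array gave 29 to 692 calls (27 to 487 higher, 1 to 205 lower), with the lone array assumed to vary like the other group. Leaving out 1 bts-3 array gave 58 to 114 genes higher in both genotypes and 20 to 29 lower in both. The interaction called 17 with the replicate block, and 0 to 7 with 1 array left out. The cause of these shifts was not tested. Detection above background was not used here, so low levels have no floor.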

Other observations

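Some genes that rose lay next to one another on a chromosome. Of 10354 pairs of adjacent protein-coding genes in which both were measured, 192 had at least 1 called gene and 9 had both called, all 9 with both higher. Counted by gene, 18 of 127 called genes with a measured neighbour (14.2%) had a called neighbour, against 1.42% of all 14031 such genes. The pairs were IMA2 and IMA1, AT1G52120 and AT1G52130, AT2G30660 and AT2G30670, AT4G17680 and AT4G17690, AT5G38820 and AT5G38810, AT3G61400 and AT3G61410, AT3G48450 and AT3G48460, AT5G41280 and AT5G41290, and AT1G51830 and AT1G51840. AT1G52120 and AT1G52130 rose by 5.97 and 4.27, and AT2G30660 and AT2G30670 by 3.68 and 3.18. Whether probes of one copy also bind transcripts of the next was not tested.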
